A study of Mus musculus with 8 samples.

Results

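Monocytes are white blood cells that circulate for a few days and can enter tissue to become macrophages or dendritic cells. In the mouse they fall into 2 subsets. Classical monocytes carry high Gr1 (the Ly-6C and Ly-6G epitopes) and are recruited to inflamed tissue, where they release cytokines and granule proteins. Nonclassical monocytes carry low Gr1, crawl along the vessel wall through the integrin LFA-1, and depend on the nuclear receptor Nr4a1, with classical monocytes as their source. The comparison described here set Gr1lo against Gr1hi blood monocytes that carried no latex beads. Its members were the 4 bead-free arrays, 2 of Gr1lo and 2 of Gr1hi cells, of 8 arrays in the series, and 18193 genes were measured on them.

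All cells came from the blood of male C57BL/6 mice that had received fluorescent plain latex microspheres of 1 µm in the bloodstream, and were sorted 4 days later by subset and by whether they held beads. Bead-free cells are therefore cells of injected mice that had not kept a bead, not cells of uninjected mice. The other 4 arrays held bead-carrying Gr1hi and Gr1lo cells, 2 arrays each, and the series text calls the 2 arrays of a group biological replicates. The age of the mice, and how many mice or cells were used for an array, are not given. Clodronate liposomes, used to remove phagocytes, are described in 2 ways. The series text has them given 3 days before the beads and names no subset, whereas the treatment text restricts them to the labelling of classical cells, and under that reading subset and pretreatment cannot be told apart.

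Values are log2 RMA expression levels, the output of a standard normalization of Affymetrix arrays. A difference is the Gr1lo mean minus the Gr1hi mean on that log2 scale, given with its moderated standard error (SE), so that 1 unit is a 2-fold change. A gene is said to have risen or fallen when it was higher or lower in Gr1lo cells at an adjusted p under 0.05 (limma across all 8 arrays, Benjamini-Hochberg over all genes). Genes that monocytes are not known to use set a background level: 95% of 115 receptor genes for odour, pheromones and taste and genes of hair keratin partners had a mean under 6.98. Where the mean of 1 subset lies under this level, the difference has only a lower bound, the brighter mean minus 6.98. Genes were still picked for naming by the difference as measured, so their order is not a ranking of true sizes. Levels of different genes are not compared, because each probe set has its own sensitivity. In sorted populations, fewer cells of a type and less RNA per cell cannot be told apart.

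The sorted subsets carried the markers of their labels, by lists that were written with earlier results of these arrays known and so are no independent check. All 22 measured nonclassical markers rose, and 12 of 16 classical markers fell, beside 10% of all genes that rose and 13.6% that fell. Treml4, a TREM-like receptor of nonclassical monocytes, was at 8.42 and 8.37 on the Gr1hi arrays and 12.90 and 13.08 on the Gr1lo arrays. Nr4a1 was at 11.16 and 11.31 against 13.35 and 13.54, a rise of 2.21 ± 0.10 (adjusted p = 3.94e-06). Ccr2, the chemokine receptor that releases classical monocytes from bone marrow, was at 12.29 and 12.33 against 11.71 and 11.26. It fell by 0.83 (SE 0.18, adjusted p = 0.00993), and without Gr1hi array 2 the adjusted p was 0.0578. Ly6c1 and Ly6c2 had no probe set with a single symbol and were not analysed here.

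The 2 bead-free Gr1lo arrays stood further apart than the 2 Gr1hi arrays. Among genes above background, 113 differed by more than 1 unit between the Gr1lo arrays and 18 between the Gr1hi arrays. Array 1 was the higher in 112 of the 113. These genes, named here after their values were seen, included genes known from resident macrophages. Prg4, which encodes lubricin, was at 12.11 on array 1 and 6.45 on array 2. The lipoxygenase Alox15 was at 11.16 and 6.31, the macrophage survival protein Cd5l at 10.99 and 6.19, the resistin-like protein Retnla at 13.10 and 8.56, and complement C1qa at 11.37 and 8.16. The platelet chemokine Pf4 was at 11.36 and 7.70. None of these 6 passed the test, and on array 2 each lay within 1 unit of the Gr1hi mean. Without array 2 the differences of the 6 ran from 3.52 for Pf4 to 5.61 for Prg4. Without array 1 the differences of the 6 ran from -0.88 for Alox15 to 0.86 for C1qa. Of the 113 genes, 37 (32.7%) were called between the subsets, beside 39.8% of all genes above background. Of 21 tissue macrophage genes 2 rose and 5 fell, beside 10% and 13.6% of all genes. Their mean level was 8.54 and 7.35 on the Gr1lo arrays against 7.73 and 7.82 on the Gr1hi arrays. Their summed signal, which the brightest genes weigh on most, was 30768 and 16777 on the Gr1lo arrays against 12480 and 12518 on the Gr1hi arrays. The bacterial poly-A control transcripts added at labelling were at 9.27 and 8.68 on the Gr1lo arrays against 7.75 and 8.11 on the Gr1hi arrays, and 18S ribosomal RNA was at 8.58 and 10.13 against 9.58 and 10.16. What part these differences have in the comparison was not tested.

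**Figure D1:**
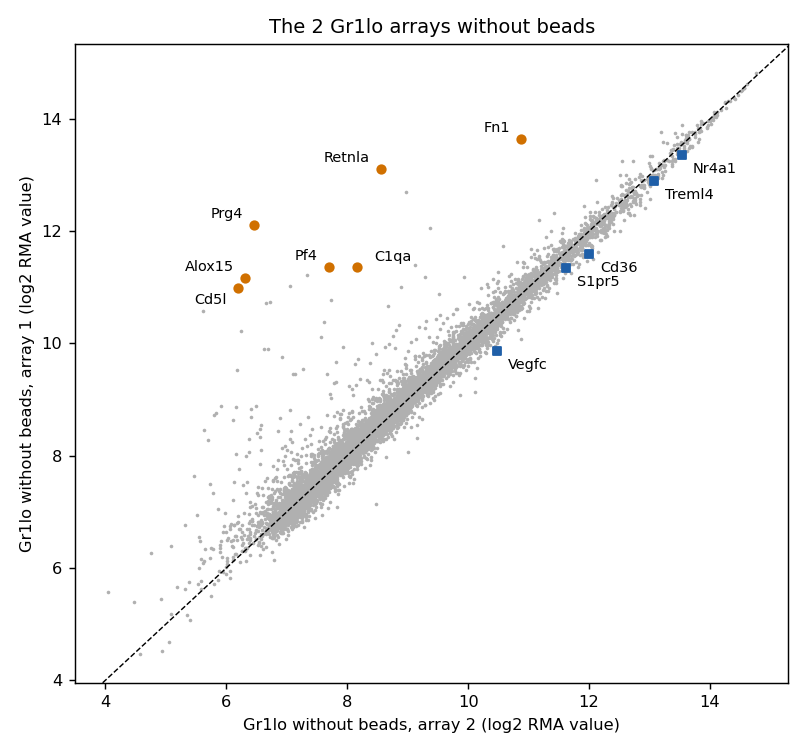
Expression level (log2 RMA value) of each gene above background in the bead-free Gr1lo group, array 1 on the vertical axis against array 2 on the horizontal axis, with the line of equality dashed. Orange circles mark 7 genes that were far higher on array 1, such as Prg4 at 12.11 against 6.45, and blue squares mark 5 genes of nonclassical monocytes, which lie near the line.

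Between the subsets, 4288 of 18193 genes were called, which is 23.6% of all genes tested. Of these, 1820 (10%) were higher and 2468 (13.6%) lower in Gr1lo cells. At least 2-fold differences were seen for 379 genes that rose and 380 that fell, 4.17% of all genes together (2.08% and 2.09%), and at least 8-fold differences for 32 and 14. The arrays of the groups did not overlap for 62% of all genes. Leaving out 1 array gave between 2631 and 4125 calls, the lowest without Gr1hi array 1 (2631) and without Gr1hi array 2 (2762). The split by direction depended on scaling: with each array centred on its median, 2411 genes were higher and 1599 lower, and after cyclic loess 2127 and 2044. The median difference over all genes was -0.07 as deposited and 0.02 after median centring.

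The 5 gene classes were assigned by families of gene symbols and took in 5058 genes, 27.8% of those measured. Transcription factors had 21.7% of 939 members called, surface receptors 27.1% of 765, channels and transporters 20.4% of 859, secreted factors 16.9% of 780 and enzymes 31.4% of 1715. The calls split unevenly by direction, with 1820 higher and 2468 lower over all genes. More transcription factors were higher than lower in Gr1lo cells (137 against 67), while more secreted factors were lower than higher (97 against 35). Both majorities stayed on the same side after median centring (186 against 33, and 69 lower against 44 higher). Enzymes had 241 higher and 298 lower, which became 309 and 199 after median centring. The share above background also differed: 217 of the 780 secreted factors but 1066 of the 1715 enzymes were above it in at least 1 subset. Among members above background only, 50.9% of surface receptors, 45.3% of enzymes, 42.4% of secreted factors, 39.4% of channels and transporters and 36.6% of transcription factors were called, beside 39.8% of all such genes.

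**Figure D2:**
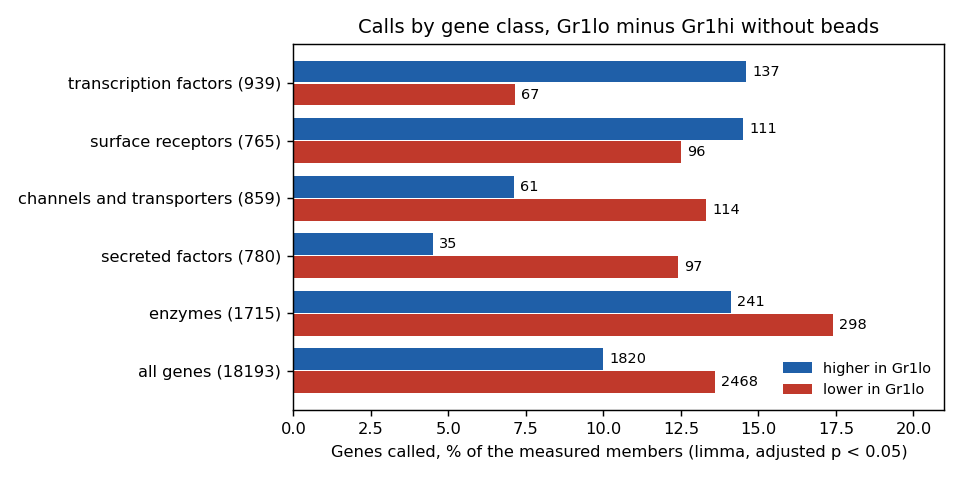
Genes called higher (blue) or lower (red) in bead-free Gr1lo than Gr1hi cells, as a percentage of the measured members of each class, with the number of measured members in parentheses and the number called beside each bar. Transcription factors have 137 higher against 67 lower, secreted factors 35 against 97, and all genes 1820 against 2468.

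**Figure D3:**
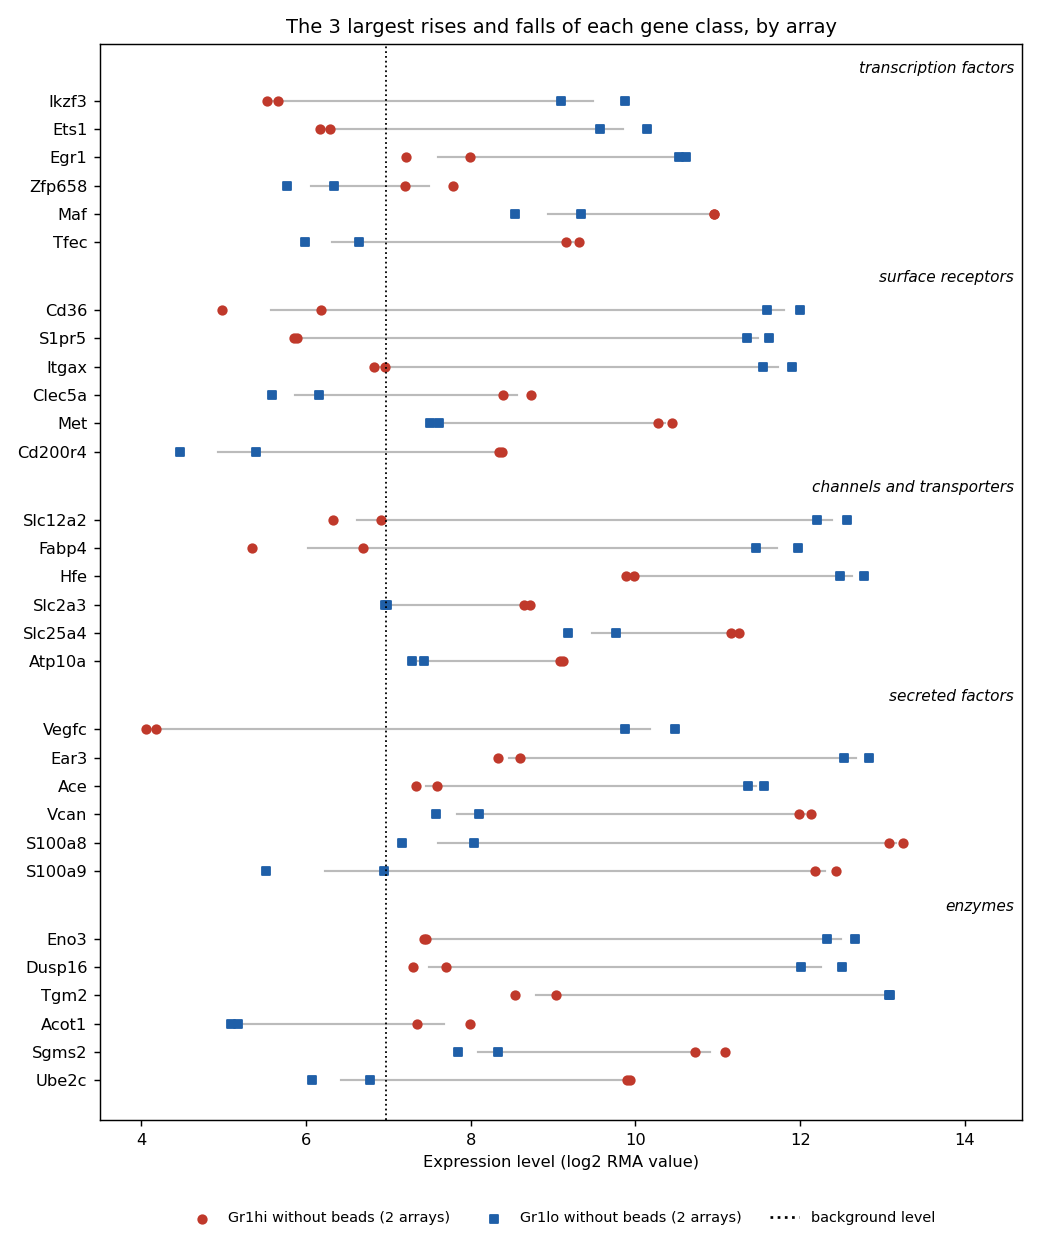
Expression level (log2 RMA value) on the 2 Gr1hi arrays (red circles) and the 2 Gr1lo arrays (blue squares) without beads for the genes with the 3 largest positive and the 3 largest negative differences of each class, with a grey line joining the group means and the background level of 6.98 dotted. The 2 groups do not overlap for any of the genes shown, as the rule for naming them required. Points under the dotted line are not above background.

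Promoters are the stretches of DNA before a start site where transcription factors bind. Those of 6 genes are printed, because NR4A, Kruppel-like and ETS factors were themselves among the genes that rose. They are the 3 largest positive and 3 largest negative differences, as measured, among named genes with an entry, and were picked after their values were seen. RefSeq promoters of GRCm38.p6 were available for 14452 of the measured genes and for 23 of the 32 genes with the largest changes, and the 250 bases before the most upstream start were searched. Motifs were searched on both strands, and matches may overlap. They were AAAGGTCA for NR4A, CCACCC for KLF, TTGCNNAA for C/EBP, GAGGAAGT for PU.1, TGANTCA for AP-1, GAAANNGAA for IRF and CACGTG for E-box. Matches are in capitals, and each window is written 5′ to 3′ on the strand of the gene.
S100a8 (chr3:90668821-90669070, + strand): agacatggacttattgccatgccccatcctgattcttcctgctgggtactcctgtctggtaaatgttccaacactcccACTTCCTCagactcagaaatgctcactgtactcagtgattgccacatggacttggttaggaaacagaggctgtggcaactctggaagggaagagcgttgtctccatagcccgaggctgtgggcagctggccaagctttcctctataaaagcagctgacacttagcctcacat
S100a9 (chr3:90695722-90695971, - strand): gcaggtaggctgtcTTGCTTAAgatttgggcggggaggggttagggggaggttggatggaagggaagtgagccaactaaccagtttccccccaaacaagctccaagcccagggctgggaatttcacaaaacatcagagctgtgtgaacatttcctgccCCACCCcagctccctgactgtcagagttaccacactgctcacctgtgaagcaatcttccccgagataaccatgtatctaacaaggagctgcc
Emp1 (chr6:135362681-135362930, + strand): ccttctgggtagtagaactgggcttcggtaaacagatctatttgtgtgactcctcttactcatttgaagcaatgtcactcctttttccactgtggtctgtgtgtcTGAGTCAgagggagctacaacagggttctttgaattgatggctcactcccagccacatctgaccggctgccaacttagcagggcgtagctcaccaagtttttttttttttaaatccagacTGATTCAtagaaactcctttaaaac
Cd36 (chr5:17835897-17836146, - strand): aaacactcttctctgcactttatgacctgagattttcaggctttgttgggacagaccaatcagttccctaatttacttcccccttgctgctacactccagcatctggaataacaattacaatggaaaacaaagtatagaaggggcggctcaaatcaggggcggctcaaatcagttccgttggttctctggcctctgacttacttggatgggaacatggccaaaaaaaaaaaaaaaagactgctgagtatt
Vegfc (chr8:54077282-54077531, + strand): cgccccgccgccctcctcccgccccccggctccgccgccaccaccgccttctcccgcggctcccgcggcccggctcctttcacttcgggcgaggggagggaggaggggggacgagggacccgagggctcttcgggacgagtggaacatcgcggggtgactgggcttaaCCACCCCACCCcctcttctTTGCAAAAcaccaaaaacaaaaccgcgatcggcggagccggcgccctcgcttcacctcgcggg
S1pr5 (chr9:21248444-21248693, - strand): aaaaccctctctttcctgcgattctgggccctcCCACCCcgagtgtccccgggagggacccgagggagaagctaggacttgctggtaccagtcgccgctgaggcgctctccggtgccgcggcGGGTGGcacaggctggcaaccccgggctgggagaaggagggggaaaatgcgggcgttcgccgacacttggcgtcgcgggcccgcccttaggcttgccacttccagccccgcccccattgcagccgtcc

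The 3 genes that fell held 1 PU.1 match (S100a8), 1 C/EBP and 1 KLF match (S100a9), and 2 AP-1 matches (Emp1). S100a8 and S100a9 lie close to each other on chromosome 3 on opposite strands. Of the 3 genes that rose, Vegfc held 2 overlapping KLF matches and 1 C/EBP match, S1pr5 held 2 KLF matches, and Cd36 held no match to any of the 7 motifs. No NR4A match was found in these 6 windows. A window without a match says only that these letters are not in it. For each motif, 3 shares follow, over all 14452 promoters, over 295 genes that rose at least 2-fold and over 301 that fell at least 2-fold. The KLF letters were in 32.7%, 39.3% and 36.5%, the PU.1 letters in 2.32%, 6.1% and 4.32%, and the IRF letters in 6.36%, 11.5% and 8.31%. All 3 were more frequent in both 2-fold sets than over all promoters. Over all genes that rose, of any size, these 3 were in 35.3%, 3.49% and 7.18%. Over all genes that fell they were in 31%, 2.41% and 7.34%, and over genes above background in 32.4%, 2.7% and 6.2%. The C/EBP letters were in 8.08%, 7.46% and 12.3%, the AP-1 letters in 5.53%, 4.75% and 9.3%, the E-box in 7.58%, 7.8% and 12%, and the NR4A letters in 1.06%, 1.36% and 0.997%. A match is a description of letters, and no binding was measured.

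Transcription factors bind DNA and set which genes a cell uses. Ikzf3 (Aiolos) is a zinc finger protein of the Ikaros family known from lymphocytes. It was at 5.66 and 5.53 on the Gr1hi arrays, below background, and at 9.09 and 9.87 on the Gr1lo arrays, a difference of 3.89 ± 0.23 (adjusted p = 1.78e-05) and a rise of at least 2.51. Ets1, the founding member of the ETS family, went from 6.29 and 6.17 to 9.57 and 10.14, a difference of 3.62 ± 0.22 and a rise of at least 2.88. Egr1, an immediate early factor, was at 7.99 and 7.21 against 10.62 and 10.53 and rose by 2.97 ± 0.23. The groups did not overlap for any of the 3, as the rule for naming them required. Ikzf3 and Ets1 were below background on both Gr1hi arrays.

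Several families of transcription factors had rises and no falls among their calls. Of 16 Kruppel-like factors, 6 rose and 10 were not called. Klf4, which is required for monocyte development, was at 11.13 and 11.13 against 12.39 and 12.65 and rose by 1.39 ± 0.10 (adjusted p = 5.1e-05). Klf2, a factor of quiescence and trafficking in leukocytes, rose by 0.89 ± 0.12. Without Gr1lo array 2 the family had 3 members higher and 1 lower. Of 7 NR4A and EGR factors the 2 that rose were Nr4a1 and Egr1. Of 23 ETS factors 6 rose, of 9 NF-kB and NFAT factors 4 rose, and of 6 STAT factors 2 rose. Elk4, Nfatc1 and Nfkb2 are among these, and each had another probe set with the opposite sign. Without Gr1hi array 2 Nfkb2 had an adjusted p of 0.0559. Nfatc3 rose by 1.02 ± 0.12, Stat3 by 0.69 ± 0.10 and Stat5b by 0.60 ± 0.09. The calls of these 5 families stayed on the side of rises under median centring and cyclic loess.

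The Ikaros and BCL group had 4 of 9 members higher and 1 lower, the latter not called without Gr1hi array 1. Bcl6, a transcriptional repressor of germinal centre B cells, rose by 2.29 ± 0.16. Hes1, a target and effector of Notch signalling, rose by 2.77 ± 0.13, and Bhlhe40 by 2.44 ± 0.09. Tcf7l2, the nuclear partner of beta-catenin, was at 6.50 and 7.24 against 9.75 and 9.72 and rose by 2.87 ± 0.27. Zbtb16 (PLZF), known from innate-like lymphocytes, rose by 2.93 ± 0.28, and the B cell repressor Bach2 rose by 1.90 ± 0.24 from below background. Pou2f2 (Oct-2) rose by 1.57 ± 0.15.

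Among 39 other nuclear receptors 6 rose, 3 fell and 30 were not called, and 1 fell without Gr1hi array 1. Pparg, the receptor for fatty acid derivatives, was at 7.31 and 7.05 against 9.60 and 9.99, a rise of 2.62 ± 0.14 (adjusted p = 8.8e-06). Nr1h3, the oxysterol receptor LXR alpha, rose by 1.33 ± 0.15, and the clock repressor Nr1d2 by 1.46 ± 0.21. Esr1, the oestrogen receptor, was at 7.36 and 7.18 against 6.58 and 6.15 and fell by 0.91.

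Few transcription factors fell 2-fold: 5, beside 31 that rose as much. Tfec, a relative of the lysosomal regulator Tfeb, was at 9.16 and 9.32 against 6.65 and 5.99, below background, and fell by 2.92 (SE 0.20, adjusted p = 3.63e-05), or by at least 2.26 from the background level. Maf (c-Maf), a macrophage differentiation factor, was at 10.96 and 10.95 against 9.34 and 8.54 and fell by 2.01 (SE 0.29). The zinc finger gene Zfp658 fell by 1.44 (SE 0.36) and was not called without Gr1hi array 1 (adjusted p = 0.127) or without Gr1lo array 2 (adjusted p = 0.0944). Irf8, which directs monocyte and dendritic cell commitment, fell by 0.44 (SE 0.11, adjusted p = 0.0194) and was not called after median centring, or without Gr1hi array 1, Gr1hi array 2 or Gr1lo array 2 (adjusted p of 0.0818 to 0.0954). Irf1, Irf2 and Irf3 rose by 0.53 ± 0.09, 0.60 ± 0.10 and 0.49 ± 0.11. Irf3 had an adjusted p of 0.0954 without Gr1hi array 2 and 0.0625 without Gr1lo array 2. In the interferon regulatory factor family 3 of 8 members rose and 2 fell, and after median centring the 2 falls were no longer called. The falls in the family were 3 without Gr1lo array 1, 1 without Gr1hi array 2, and none were called without Gr1lo array 2 or without Gr1hi array 1. E2f8, a factor of the cell division cycle, fell by 0.91. The count of transcription factors that fell dropped from 67 to 23 without Gr1hi array 1 and to 41 without Gr1hi array 2, and without the latter 87 rose in place of 137.

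Surface receptors tell a monocyte where to go and what to bind. Cd36 is a scavenger receptor that takes up fatty acids and oxidised lipoprotein. It was at 4.98 and 6.18 on the Gr1hi arrays and 11.60 and 12 on the Gr1lo arrays, a difference of 6.22 ± 0.37 (adjusted p = 1.72e-05). Measured from the background level the rise was at least 4.82, or at least 28.3-fold. S1pr5, a receptor for sphingosine 1-phosphate that guides leukocytes out of bone marrow, was at 5.85 and 5.89 against 11.35 and 11.62. Its difference of 5.62 ± 0.11 had an adjusted p of 6.48e-08, and the rise was at least 4.51. Cd36 and S1pr5 were below background on both Gr1hi arrays and far above it on both Gr1lo arrays.

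Receptors of adhesion and crawling changed in both directions. Itgax (CD11c), the integrin chain used to mark dendritic cells, was at 6.96 and 6.83 against 11.55 and 11.90, a difference of 4.83 ± 0.15 and a rise of at least 4.75. Itgal, the LFA-1 chain, rose by 1.79 ± 0.10, and Itgb5 by 1.43 ± 0.10. Itga1, a collagen-binding chain, was at 8.26 and 8.20 against 6.18 and 5.73 and fell by 2.28. Of 24 integrin chains 7 rose, 3 fell and 14 were not called. Among 102 adhesion molecules 17 rose, 11 fell and 74 were not called (median difference -0.08), the falls being 4 without Gr1hi array 1 and 6 without Gr1hi array 2. Spn (CD43), a large sialoglycoprotein used to define nonclassical monocytes, rose by 2.58 ± 0.13, and the tetraspanins Cd9 and Tspan13 by 2.94 ± 0.13 and 2.09 ± 0.10. The tetraspanin Cd82 rose by 2.39 ± 0.11 on its brightest probe set, while another differed by -0.10.

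The chemokine receptors moved both ways, 3 up and 5 down of 27, and 3 and 3 after median centring. Only 2 fell without Gr1hi array 1 or without Gr1hi array 2. Cx3cr1, the fractalkine receptor that supports nonclassical survival, was at 8.87 and 8.73 against 10.10 and 10.34 and rose by 1.42 ± 0.11. Cxcr4, which retains cells in bone marrow, rose by 1.28 ± 0.19. Among other G protein-coupled receptors, the adhesion receptor Adgre4 rose by 3.69 ± 0.10, Gpr18 by 2.18 ± 0.11 and Gpr35 by 1.37 ± 0.10.

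Receptors for antibody and the families of TREM, CD300, LILR, PIR and Siglec receptors were heavily called. Of 39 TREM, CD300, LILR, PIR and Siglec receptors 12 rose and 12 fell (13 and 9 after median centring), 61.5% against 23.6% of all genes. Treml4 rose by 4.59 ± 0.09, Cd300ld by 2.25 ± 0.12, Cd300c2 by 1.87 ± 0.10 and the Siglec Cd22 by 1.36 ± 0.13. Pilrb1, which has close paralogues, rose by 2.06 ± 0.09. Cd200r4 was at 8.38 and 8.34 against 5.39 and 4.47, below background, and fell by 3.43 (SE 0.29), or by at least 1.38 from the background level. Trem2, a lipid receptor of macrophages, fell by 1.54. Fcgr4, the activating receptor for IgG2, was at 9.28 and 9.87 against 12.29 and 12.75 and rose by 2.94 ± 0.25. Fcgr1, the high-affinity IgG receptor, was at 11.18 and 11.19 against 10.04 and 9.60 and fell by 1.37. The neonatal Fc receptor Fcgrt rose by 1.46 ± 0.09. Of 15 Fc receptors 4 rose and 3 fell.

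Of 65 MHC and costimulatory molecules 17 rose, 6 fell and 42 were not called (median difference 0.08). H2-Ab1, H2-Aa and H2-Eb1, the chains of MHC class II, rose by 3.80 ± 0.21, 3.34 ± 0.12 and 3.89 ± 0.23. Their chaperone, the invariant chain Cd74, was at 10.67 and 10.29 against 13.59 and 13.22 and rose by 2.93 ± 0.17. Cd274 (PD-L1), an inhibitor of T cells from the nonclassical marker list, rose by 2.79 ± 0.19. Of 14 dendritic cell markers 4 rose and 2 fell, beside 10% and 13.6% of all genes. Their summed signal was 27150 and 18385 on the Gr1lo arrays against 8162 and 7444 on the Gr1hi arrays. The 4 were Cd209a, H2-Ab1, Cd74 and Ciita, the master regulator of MHC class II, which rose by 1.04 ± 0.23. Zbtb46, Xcr1, Siglech and Ccr7, which mark dendritic cell types, were not called and were below background in both subsets. The part of dendritic cell RNA in the values of antigen presentation genes was not tested.

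Other receptors were lower in Gr1lo cells. Met, the hepatocyte growth factor receptor, was at 10.28 and 10.45 against 7.61 and 7.51 and fell by 2.80 (SE 0.10, adjusted p = 1.27e-06). Clec5a, a lectin that senses viruses, was at 8.39 and 8.73 against 6.16 and 5.58, below background, and fell by 2.69, or by at least 1.58. The scavenger receptor Msr1 fell by 1.31, the guidance receptors Plxnd1 and Nrp1 by 1.64 and 1.21, and Notch1 by 1.31. Of 16 MS4A membrane proteins, 5 fell and 11 were not called, under each of the 2 other scalings as well. Ms4a4c, Ms4a6d and Ms4a7 fell by 1.11, 1.15 and 1.47. The transforming growth factor receptors Tgfbr3 and Tgfbr1 rose, Tgfbr3 from 5.88 and 6.18 to 9.90 and 10.19 and Tgfbr1 by 1.48 ± 0.10. The 2 pattern receptors Tlr7 and Nod1 rose by 0.94 ± 0.12 and 0.74 ± 0.09, and Tlr5, the flagellin receptor, fell by 0.71. The count of surface receptors that fell dropped from 96 to 56 without Gr1hi array 1.

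Channels and transporters move ions and nutrients across membranes, and fewer of them rose (61) than fell (114), 7.1% and 13.3% of the class beside 10% and 13.6% of all genes. After median centring the numbers were 86 and 86. Slc12a2 (NKCC1) is the cotransporter of sodium, potassium and chloride. It was at 6.33 and 6.91 on the Gr1hi arrays, both below background, and at 12.21 and 12.57 on the Gr1lo arrays, a difference of 5.77 ± 0.18 (adjusted p = 7.39e-07) and a rise of at least 5.41. The nucleoside transporter Slc29a1 was at 6.59 and 6.91 against 9.05 and 8.64 and rose by 2.09 ± 0.15. Slc11a1 (NRAMP1), which withdraws metal from the phagosome, rose by 1.06 ± 0.08.

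The carriers held members that are not channels. Fabp4, a fatty acid chaperone of fat cells and macrophages, was at 5.35 and 6.69 against 11.47 and 11.97, a difference of 5.70 ± 0.41 and a rise of at least 4.74. Its 4 probe sets differed by 0.76 to 5.70, and the 2 above background by 5.43 and 5.70. Hfe, a regulator of iron uptake, rose by 2.69 ± 0.11, and Stard4, a cholesterol carrier, by 1.39 ± 0.10. Npc1, which releases cholesterol from lysosomes, was at 9.57 and 9.46 against 8.09 and 7.88 and fell by 1.53. Of 69 such carriers 11 rose and 10 fell, with 7 rises without Gr1lo array 2 and 6 without Gr1hi array 1.

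Ion channels changed in both directions. Of 32 chloride, volume and anion channels 8 fell and 2 rose, which became 4 and 3 after median centring. The falls were 4 without Gr1lo array 2 or without Gr1hi array 1 and 5 without Gr1hi array 2. The ryanodine receptor Ryr1, a calcium release channel, was at 8.95 and 9.06 against 10.42 and 10.48 and rose by 1.44 ± 0.09. The epithelial sodium channel subunit Scnn1a rose by 1.76 ± 0.25, and the connexin Gjb2 by 1.82 ± 0.12 from below background. Kcnn4, a calcium-activated potassium channel, was at 10.08 and 10.05 against 9.24 and 8.03 and fell by 1.43 (SE 0.31), with the Gr1lo arrays far apart, and had an adjusted p of 0.0581 without Gr1hi array 1 and 0.0523 without Gr1hi array 2. The lysosomal channel Tpcn1 fell by 0.82 and the pannexin Panx1 by 0.73. Of 81 potassium channels 15 were above background, while 1 rose and 4 fell, the falls being 2 without Gr1hi array 1 or without Gr1hi array 2.

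More ATP-driven pumps fell than rose. Of 23 subunits of the vacuolar proton pump, which acidifies lysosomes, 8 fell and 15 were not called, and 8 fell under both other scalings. Atp6v1a was at 10.87 and 10.80 against 9.76 and 9.68 and fell by 1.11 (SE 0.08, adjusted p = 4.46e-05), and Atp6v1c1 fell by 0.72. Of 44 P-type ATPases and flippases 13 fell and 2 rose (1 rose without Gr1hi array 2). The flippase Atp10a fell by 1.74, and Atp2a3, a calcium pump of the endoplasmic reticulum, by 1.18. Slc25a4, which exchanges ADP for ATP across the mitochondrial membrane, was at 11.16 and 11.26 against 9.77 and 9.18 and fell by 1.74. The porins Vdac1 and Vdac2 of the mitochondrial outer membrane fell by 0.52 and 0.52. The glucose transporter Slc2a3 (GLUT3) was at 8.72 and 8.64 against 6.99 and 6.96 and fell by 1.71. Without Gr1hi array 2 the class had 38 higher calls, and without Gr1hi array 1 it had 74 lower calls.

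Secreted factors had 35 members higher and 97 lower, 4.49% and 12.4% of the class beside 10% and 13.6% of all genes. Vegfc is the growth factor of lymphatic vessels. It was at 4.17 and 4.06 on the Gr1hi arrays and 9.87 and 10.48 on the Gr1lo arrays, a difference of 6.06 ± 0.17 (adjusted p = 6.74e-07) and a rise of at least 3.20. The Notch ligand Jag1 was at 5.67 and 5.44 against 8.77 and 8.85, a difference of 3.25 ± 0.10 and a rise of at least 1.83. Hgf, the ligand of Met, rose by 1.01 ± 0.10, so that the ligand and its receptor were on opposite sides. Of 173 growth factors 7 rose and 14 fell, which became 9 and 5 after median centring and 9 and 6 after cyclic loess. The falls were 5 without Gr1hi array 1 and 4 without Gr1hi array 2.

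Cytokines moved in both directions. Il1b, a pyrogenic cytokine, was at 9.10 and 9.03 against 11.67 and 11.87 and rose by 2.71 ± 0.21. Il18, of the same family, was at 10.39 and 10.19 against 9.35 and 8.78 and fell by 1.23. Ltb, the lymphotoxin chain that organises lymphoid tissue, rose by 3.15 ± 0.19. Ccl2, the ligand of Ccr2, was at 9.09 and 8.46 against 7.29 and 6.52 and fell by 1.87 (SE 0.35). Of 34 chemokines 2 rose and 2 fell, and 3 and 1 after median centring. The balance turned with single arrays: 1 rose and 4 fell without Gr1lo array 1, and 5 rose and 1 fell without Gr1lo array 2. Without Gr1hi array 1 no rise and 1 fall were called, and 1 rise and 2 falls without Gr1hi array 2.

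S100 and granule proteins were the role with the most secreted factors lower: 37 of 116 fell and 5 rose (9 rose without Gr1lo array 2). S100a9 and S100a8, the 2 subunits of the alarmin calprotectin, both fell. S100a9 was at 12.18 and 12.44 on the Gr1hi arrays and at 6.94 and 5.52 on the Gr1lo arrays, below background on both, and fell by 6.08 (SE 0.38, adjusted p = 2e-05), or by at least 5.33 from its Gr1hi mean to the background level. S100a8 was at 13.08 and 13.25 against 8.04 and 7.17 and fell by 5.57. Lcn2, which binds bacterial iron carriers, fell by 3.60, and the galectin Lgals1 by 2.72. The chitinase-like protein Chil3 was at 14.05 and 14.03 against 13.18 and 13.26 and fell by 0.82. Ear3, a ribonuclease of a family with near-identical copies, was at 8.33 and 8.60 against 12.53 and 12.84 and rose by 4.22 ± 0.13, and signal from its paralogues cannot be told apart from its own.

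Of 13 measured neutrophil markers 10 fell, beside 13.6% of all genes. Camp, Ngp, Ltf and Mmp9 were among the 10. Their summed signal was 18392 and 19655 on the Gr1hi arrays against 2805 and 2231 on the Gr1lo arrays. S100a8 and S100a9 are on that list and make up most of the summed signal on the Gr1hi arrays, and monocytes make both. The G-CSF receptor Csf3r was at 10.72 and 10.49 against 10.39 and 10.33, and the neutrophil chemokine receptor Cxcr2 was below background on all 4 arrays. Ngp was at 9.02 and 7.45 on the Gr1hi arrays, so that the 2 arrays differed by more than 1 unit. Ly6g and Retnlg were not analysed here. What part neutrophil RNA has in the granule genes was not tested.

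Among coagulation and matrix genes, Vcan, the large proteoglycan versican, was at 11.98 and 12.14 against 8.10 and 7.58 and fell by 4.22 (SE 0.15, adjusted p = 1.4e-06). F13a1, the chain of the clot-stabilising factor XIII, fell by 3.15. Mmp8, a collagenase, was at 11.40 and 11.52 against 8.52 and 7.57 and fell by 3.41. Vwf, the von Willebrand factor of endothelium and platelets, was at 4.64 and 4.87 against 7.47 and 7.66, a difference of 2.81 ± 0.12 and a rise of at least 0.59. Of 13 platelet markers 1 rose, Vwf, and 2 fell, Gp9 (-0.26) and Clec1b (-0.31), beside 23.6% of all genes called. The platelet markers Ppbp and Itga2b differed by -0.34 and -0.24 and were not called. The summed signal of 13 platelet markers was 3098 and 3077 on the Gr1hi arrays against 5320 and 2857 on the Gr1lo arrays, and its part in the Vwf value was not tested. Serpinb6a, a protease inhibitor, rose by 3.14 ± 0.13. Ace, the angiotensin-converting enzyme that sits on the cell surface and is grouped here with proteases, was at 7.59 and 7.33 against 11.37 and 11.56 and rose by 4.00 ± 0.12. Adamdec1 rose by 3.14 ± 0.17, and the apolipoproteins Apoe and Apoc2 rose by 2.04 ± 0.14 and 1.69 ± 0.11. Without Gr1lo array 2 the class had 52 higher calls, while the lower calls were 63 without Gr1hi array 1 and 62 without Gr1hi array 2.

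Enzymes had the largest share of calls of the 5 classes over all measured members, 31.4%. Among members above background the share was 45.3%, under the 50.9% of surface receptors. The directions turned with scaling (241 higher and 298 lower, against 309 and 199 after median centring). The glycolytic enolase Eno3, the muscle form, was at 7.46 and 7.43 against 12.32 and 12.66 and rose by 5.05 ± 0.12 (adjusted p = 1.93e-07), or 33.1-fold. Pfkfb4, which raises an activator of glycolysis, rose by 0.87 ± 0.10. The pyruvate kinase Pkm was at 12.54 and 12.35 against 11.66 and 11.46 and fell by 0.89. Of 48 glycolysis and pentose phosphate enzymes 7 rose and 11 fell, with 3 rises without Gr1lo array 2 and 4 without Gr1hi array 2.

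In the role of mitochondrial fuel use and the TCA cycle more enzymes fell than rose. Of the 67 gene symbols placed in this role 27 fell and 1 rose. Hadh, an enzyme of fatty acid oxidation, was at 11.31 and 11.43 against 10.39 and 10.05 and fell by 1.15 (SE 0.12). Got2 fell by 0.99 and Acadsb by 0.89. The 1 that rose, Hmgcs1, makes HMG-CoA for sterol synthesis in the cytosol. The mitochondrial enzyme Acss1, which rose, is counted with the fatty acid and sterol enzymes. The pyruvate dehydrogenase subunit Pdha1, which is not among the rises counted in this role, differed by 0.71 and 1.05 on its 2 probe sets. The counts thus depend on the symbol families that define the role. The falls were 18 after median centring, 17 without Gr1lo array 2 or without Gr1hi array 1, and 14 without Gr1hi array 2.

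Fatty acid and sterol enzymes rose more often than they fell, 39 against 25 of 223, the falls being 11 without Gr1hi array 1. Acss1 and Acss2, which make acetyl-CoA from acetate, rose by 2.51 ± 0.11 and 1.63 ± 0.11. The acyltransferase Agpat4 rose by 1.69 ± 0.10, and Hpgd, which inactivates prostaglandins, was at 9.67 and 9.49 against 12.29 and 12.68 and rose by 2.90 ± 0.13. Acot1, an acyl-CoA thioesterase, was at 7.35 and 8.00 against 5.17 and 5.08 and fell by 2.54, or by at least 0.69. Of 137 sphingolipid, phosphoinositide and phospholipid enzymes 20 rose and 22 fell, which became 30 and 17 after median centring and 23 and 20 after cyclic loess. The falls were 14 without Gr1lo array 2 and 9 without Gr1hi array 1. Smpdl3b rose by 2.62 ± 0.10, and Sgms2, a sphingomyelin synthase, was at 10.72 and 11.09 against 8.34 and 7.85 and fell by 2.81. The protein cross-linking enzyme Tgm2 was at 8.54 and 9.03 against 13.10 and 13.08 and rose by 4.30 ± 0.15.

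Among calls of signalling enzymes rises outnumbered falls, while over all genes 10% rose and 13.6% fell. Rises and falls were 18.5% and 11.9% of protein phosphatases, 23.3% and 10% of tyrosine kinases, and 19.6% and 13.9% of other serine/threonine kinases. After median centring counts were 37 and 12, 7 and 2, and 54 and 19 in that order, and 2411 and 1599 over all genes. The phosphatase Dusp16, which switches off stress-activated MAP kinases, was at 7.70 and 7.29 against 12.01 and 12.51 and rose by 4.76 ± 0.19 (adjusted p = 1.95e-06). Dusp2 and Dusp5, which act on ERK, rose by 3.37 ± 0.11 and 2.91 ± 0.18. The tyrosine kinase Fyn was at 8.19 and 8.08 against 10.20 and 10.31 and rose by 2.12 ± 0.09, and the receptor kinase Grk3 rose by 2.56 ± 0.12 and Sgk1 by 1.81 ± 0.14. Of 168 protein phosphatases 31 rose and 20 fell, of 30 tyrosine kinases 7 rose and 3 fell (1 fell without Gr1hi array 1), and of 209 other serine/threonine kinases 41 rose and 29 fell. The serine/threonine kinase rises were 25 without either Gr1hi array, and the falls 17 without Gr1hi array 1 and 18 without Gr1hi array 2. The phosphatase falls were 9 to 13 with any 1 of the 4 arrays left out, fewest without Gr1hi array 1. The de novo DNA methyltransferase Dnmt3a rose by 1.43 ± 0.14, and the maintenance enzyme Dnmt1 was at 9.72 and 9.54 against 8.87 and 8.82 and fell by 0.78.

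Redox and lysosomal enzymes fell more often than they rose, with a smaller gap after median centring. Falls and rises were then 17 and 7 for redox and xenobiotic enzymes, and 14 and 10 for lysosomal hydrolases and cathepsins. Among 118 redox and xenobiotic enzymes 27 fell and 5 rose. The falls were 16 without Gr1hi array 1 and 15 without Gr1hi array 2, and the rises 3 without Gr1lo array 1, 1 without Gr1hi array 1 and 2 without Gr1hi array 2. Gpx3, a glutathione peroxidase, was at 9.84 and 9.69 against 7.46 and 7.53 and fell by 2.27 (SE 0.09, adjusted p = 1.71e-06). The microsomal glutathione transferases Mgst3 and Mgst2 fell by 1.92 and 1.88. Of 57 lysosomal hydrolases and cathepsins 19 fell and 8 rose, with 12 falls without Gr1lo array 2. Gla, the alpha-galactosidase, was at 8.65 and 8.76 against 6.48 and 6.07 and fell by 2.43 (at least 1.73), while Acp5, an acid phosphatase of osteoclasts, rose by 1.98 ± 0.15. Ctsc, the protease that activates granule enzymes, fell by 0.87. Psat1, of serine synthesis, was at 9.63 and 9.67 against 7.64 and 7.03 and fell by 2.31. Ube2c, a ubiquitin enzyme of mitosis, was at 9.90 and 9.94 against 6.78 and 6.08 and fell by 3.49 (SE 0.20), or by at least 2.94. The count of enzymes that fell dropped from 298 to 164 without Gr1hi array 1 and to 194 without Gr1hi array 2.

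**Figure D4:**
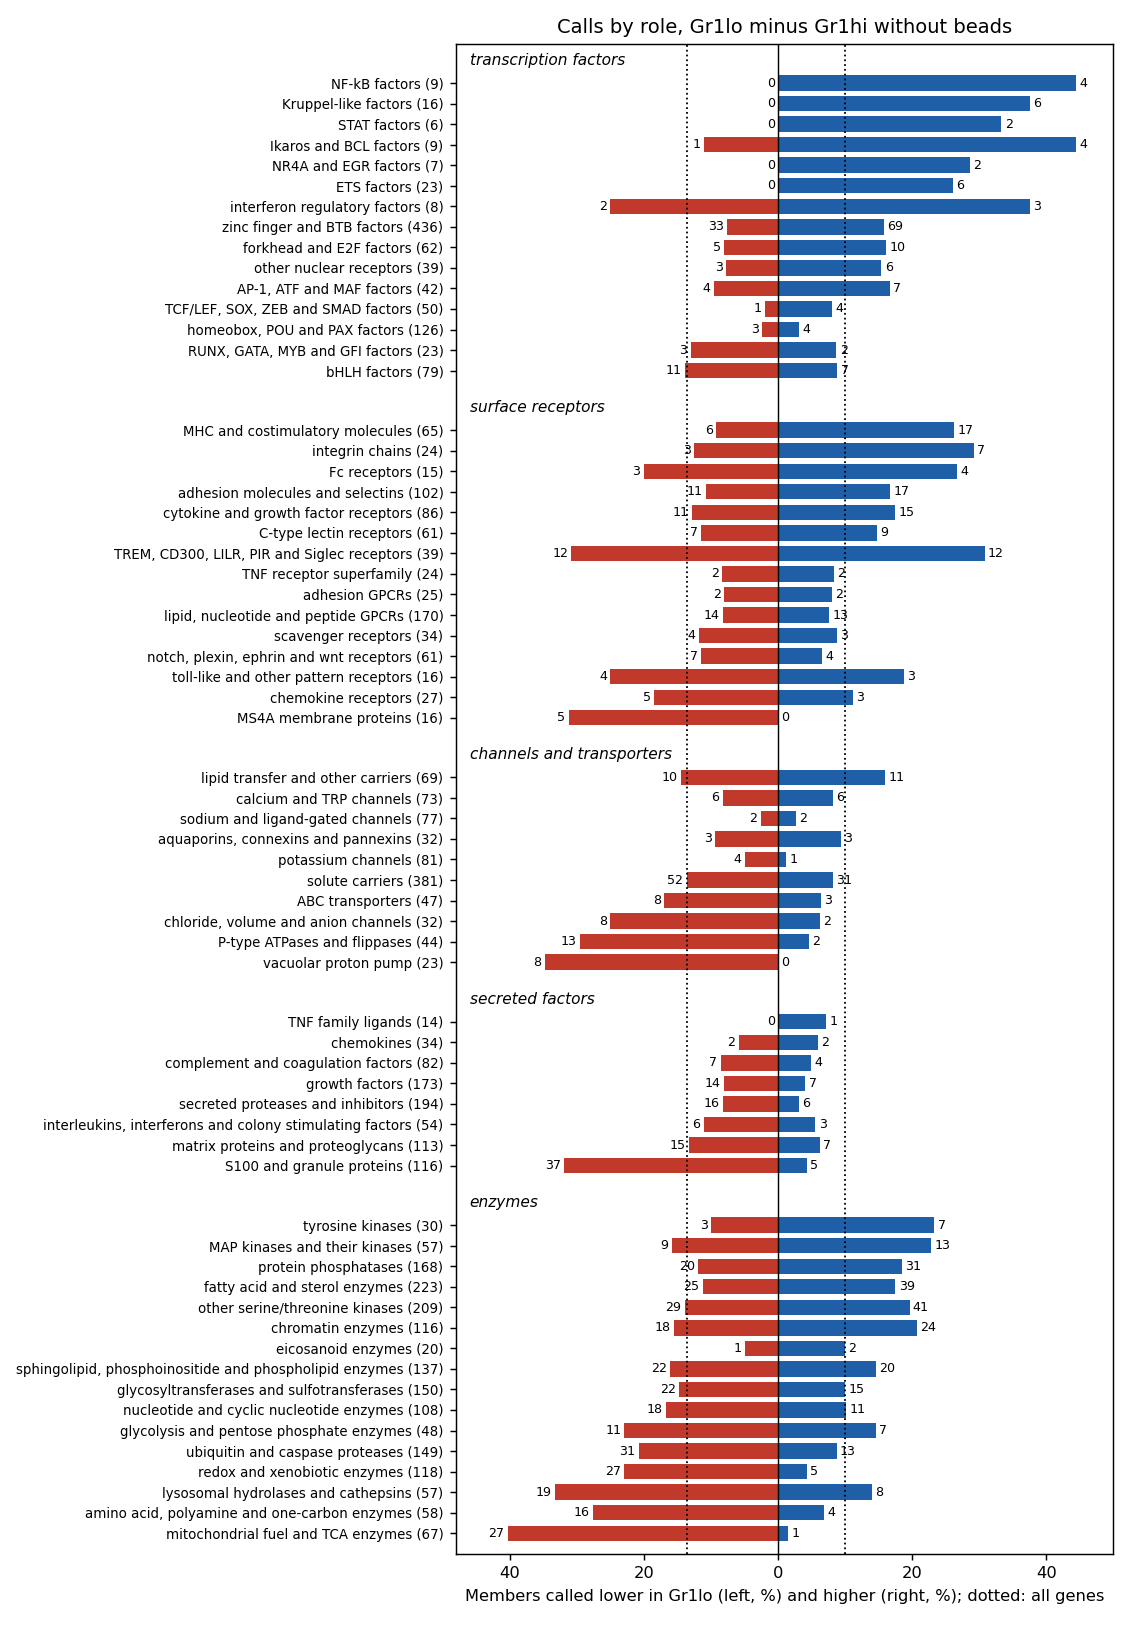
Share of the members of each role called higher (right, blue) or lower (left, red) in bead-free Gr1lo cells, in percent of the measured members (number in parentheses), with the number called beside each bar and the shares of all genes, 10% and 13.6%, dotted. The role of mitochondrial fuel use and the TCA cycle (27 lower, 1 higher, the cytosolic Hmgcs1) leans to the left. S100 and granule proteins (37 lower, 5 higher) and the vacuolar proton pump (8 lower) also lean to the left. The 6 Kruppel-like and 6 ETS factors lean to the right.

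The subset with the lower level was also below background on average for Adamdec1, Bach2, Camp, Ccl2, Cd209a, Cd274, Ciita, E2f8, Esr1, Gjb2, Hgf, Itga1, Klrd1, Lcn2, Ltf, Mgst2, Mmp9, Ngp, Nr1h3, Slc29a1, Slc2a3, Slc40a1, Tcf7l2, Tgfbr3 and Zfp658, so their differences are not measured on both sides. Many of the genes above had more than 1 probe set. Beside the Cd82 probe sets, those of Vcan differed by -4.23 to 0.01, those of Ikzf3 by 0.11 to 3.89 and those of Acss1 by -0.08 to 2.51. Counting only probe sets above background, those of Vcan differed by -4.23 to -3.07, and Ikzf3 and Acss1 had 1 each (3.89 and 2.51). The values given are those of the probe set with the highest mean.

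Outside the 5 classes, Emp1, an epithelial membrane protein, was at 11.43 and 11.89 against 7.50 and 5.73 and fell by 5.05 (SE 0.48), or by at least 4.69 from its Gr1hi mean to the background level. Gpnmb, a glycoprotein of lipid-laden macrophages, was at 9.94 and 10.12 against 6.25 and 6.16 and fell by 3.83 (SE 0.17), or by at least 3.05. Of 13135 genes in no class, 1235 rose and 1796 fell.

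The same subset comparison in bead-carrying cells used 4 other arrays. Both comparisons came from 1 fit with 1 estimate of spread per gene, so their calls are not independent. Deviations of same-numbered arrays also correlated between bead states, at 0.36 (Gr1hi) and 0.27 (Gr1lo). There 4817 genes were called, 26.5% of all genes, with 2152 higher and 2665 lower. Of the 4288 genes called without beads, 4171 (97.3%) had the same sign with beads, against 74% of all genes. In both states 3371 genes were called in the same direction, which is 78.6% of the calls without beads and 70% of those with beads. Only 3 genes were called in opposite directions. The differences in the 2 states correlated at 0.89 across all genes, which are not independent replicates. Transcription factors had 169 higher and 60 lower with beads, and secreted factors 43 and 98.

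The test of whether the subset difference itself depended on bead state called 8 genes, 0.044% of all genes (6 with a positive difference, 0.033%, and 2 with a negative, 0.011%), while 1427 had an unadjusted p under 0.05. Cd209a, a lectin of monocyte-derived dendritic cells, was at 6.46 and 6.35 against 10.07 and 9.73 without beads. It rose by 3.49 ± 0.12 there and differed by 0.28 with beads (difference between the states 3.21, adjusted p = 0.000646). Klrd1, the NK receptor chain CD94, rose by 1.55 ± 0.12 without beads and fell by 0.55 with beads. The gap between subsets was smaller without beads than with beads for 4 genes: F13a1, where Gr1lo cells were lower by 3.15 against 5.86, Vcan (4.22 against 6.69), Chil3 (0.82 against 2.22) and the fatty acid carrier Fabp5 (0.56 against 2.00). Slc40a1, the iron exporter ferroportin, fell by 1.57 without beads and differed by 0.21 with beads. Ms4a2, a chain of the mast cell and basophil IgE receptor, fell by 0.98 and differed by 0.16 with beads, all below background. Without array 2 of the bead-free Gr1lo cells, which leaves array 1 alone in that group, 167 genes were called in this test. Without array 1 of the bead-free Gr1hi cells only Cd209a was called. Cd209a was also called with any other array left out, while the other 7 each missed the threshold at least once, with adjusted p up to 0.223 in limma.

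**Figure D5:**
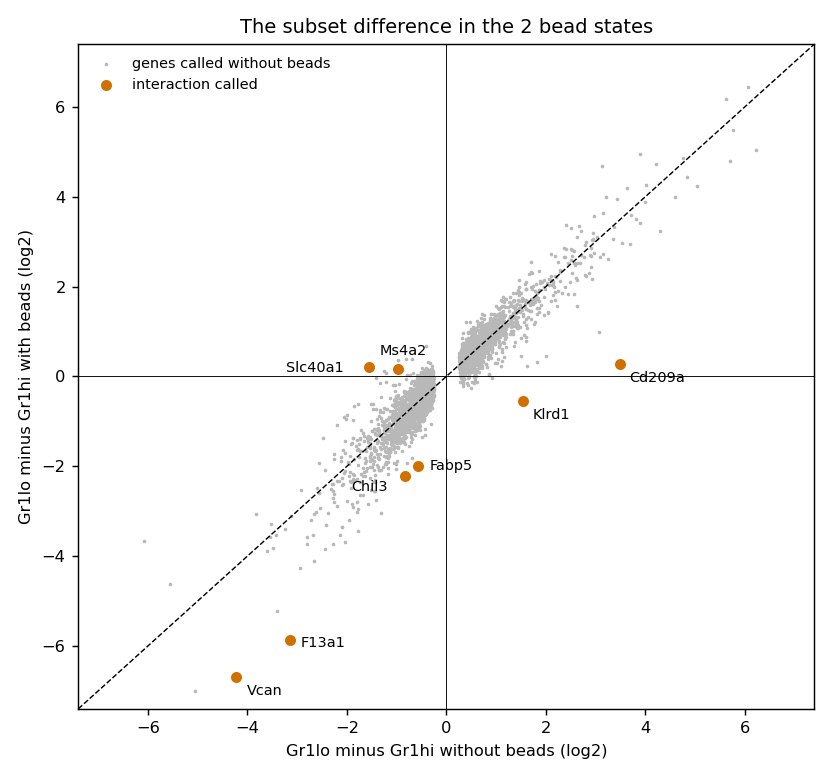
Difference Gr1lo minus Gr1hi (log2) without beads on the horizontal axis and with beads on the vertical axis, for the 4288 genes called without beads (grey), with the line of equality dashed. Orange points mark the 8 genes whose difference depended on bead state, with Cd209a at 3.49 without and 0.28 with beads.

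Markers of other blood cells are given beside the 23.6% of all genes that were called. Of 11 eosinophil and basophil markers 6 fell, with 1 of the 11 above background. Of 13 B cell markers 2 rose and 2 fell, and of 7 erythroid markers 2 rose and 1 fell. Of 12 T cell markers 1 rose and 1 fell, and of 12 NK markers 2 rose. What part such cells have in the comparison was not tested.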

How the data were processed

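Affymetrix mouse GeneChip arrays were hybridised with RNA of sorted monocytes. The authors deposited log2 values normalized by RMA (oligo in R), per the series design text and the submitters' processing notes, so depth does not apply and the number of arrays limits precision. Of 45101 probe sets, 34945 had 1 symbol, 932 several, 9160 none and 64 were controls. Each of 18193 genes was represented by its brightest probe set on average across all 8 arrays. A model with 4 group means was fitted with limma 3.58.1 (R 4.3.3), with empirical Bayes moderation and 2-sided tests, adjusted by Benjamini-Hochberg over all genes. It was checked on simulated data. P-values measure the spread between arrays, and the number of mice behind them is not stated.

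Genes named were, per class, the 3 largest positive and negative differences with 1 subset above background with arrays that did not overlap, per role up to 4 called genes with the smallest p, label check genes, the leading markers of each list, and the genes with the smallest p for dependence on bead state. Members, classes, marker lists and motifs were chosen with earlier results of these data known. Alternatives covered the probe set rule, background filter, scaling, moderation, array weights, a minimum fold, a fit of the 4 arrays alone, a replicate block and leaving out each array.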

Additional observations from a re-analysis of the deposited data

Results flagged for a closer look

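For 8 genes the difference between Gr1lo and Gr1hi cells was itself different without and with beads, by the interaction test in limma (adjusted p under 0.05). Without minus with beads, the difference was 3.21 for Cd209a, 2.71 for F13a1, 2.46 for Vcan, 2.10 for Klrd1, 1.44 for Fabp5 and 1.40 for Chil3. It was -1.78 for Slc40a1 and -1.14 for Ms4a2. With the mean of all Vcan probe sets the value was 0.25 and was not called.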

How the results depend on the processing

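Without beads, 4288 genes were called, and the alternatives gave 3440 to 4663 except a minimum fold of 1.2 (1616) and leaving out an array (2631 to 4125). With beads the minimum fold gave 2116 and leave-one-out 3267 to 4964. For dependence on bead state, 8 genes were called, against 5 above background, 5 with the mean of all probe sets, 5 with the minimum fold, 17 with trend and robust moderation and 1 to 167 leaving out an array. The fit of the 4 bead-free arrays cannot give the values that need the others. A lone array left in a group is assumed to vary like the others. No label says that equal replicate numbers share mice. Deviations of same-numbered arrays correlated at 0.09 (without beads) and 0.02 (with beads) between subsets, and at 0.36 (Gr1hi) and 0.27 (Gr1lo) between bead states. With a replicate block 4663 genes were called without beads, 4234 of them shared, 5177 with beads, and 10 for dependence on bead state, 6 of them shared; Ms4a2 (adjusted p = 0.0594) and Slc40a1 (0.0669) were not called. Of 279 named genes called, 224 stayed called with the same sign under all 18 alternatives. Cxcl15 became -0.15 with the most variable probe set. Leaving out an array moved 5 uncalled genes across 0: Alox15 between -0.88 and 3.98, Cd5l between -0.004 and 4.79, Pf4 between -0.15 and 3.52, Prg4 between -0.042 and 5.61, and Retnla between -0.032 and 4.51, the lowest each time without Gr1lo array 1. The cause was not tested.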
